A study of Mus musculus with 8 samples.

Results

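Blood and lymphatic endothelial genes, together with the VEGF, angiopoietin, apelin and related ligand systems, were followed as a set of 40 genes in mammary tumors with and without an epithelial Cre transgene against Mmp14. The members were chosen by gene symbol, all 40 were measured, and they stood among 22180 genes that had 1 symbol in the platform annotation. The knockout tumors (cKO, n = 4) carried MMTV-PyMT, MMTV-Cre and floxed Mmp14 alleles, MMTV-PyMT+/MMTV-Cre+/Mmp14(f/f). The control tumors (WT, n = 4) came from littermates with MMTV-PyMT and the same floxed alleles but no Cre transgene, MMTV-PyMT+/Mmp14(f/f). All mice were congenic FVB/NJ and 3 to 4 months old, and each tumor gave 1 array of total RNA from intact tissue. The MMTV promoter drives both the PyMT oncogene and Cre mainly in mammary epithelium, so endothelial cells were not the intended cells of deletion, and the groups differ in the Cre transgene as well as in Mmp14. The samples were whole tumors, in which fewer endothelial cells and less RNA per endothelial cell cannot be told apart.

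Endothelial cells line blood and lymphatic vessels and are held together by junction proteins such as VE-cadherin. Growth of new vessels is driven by VEGF-family ligands, which bind the tyrosine kinase receptors encoded by Flt1, Kdr and Flt4 with neuropilins as co-receptors. Maturation and stability of vessels depend on the angiopoietins and their receptor Tek, and ETS-family and SOX-family transcription factors maintain the endothelial state. In mammary tumors of this model, vessels lie in the stroma between nests of carcinoma cells.

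The values are RMA log2 signals, on which a difference of 1 is a 2-fold change in signal. Array medians ranged from 3.64 to 3.71, which gives a scale for dim genes, and no pair of arrays had a correlation across rows under 0.976. The targeted gene Mmp14 had signals of 7.98, 7.74, 7.44 and 7.72 in cKO tumors 1 to 4, against 8.86, 9.12, 9.31 and 9.17 in WT tumors 1 to 4. It fell by 1.40 (SE 0.13, adjusted p = 0.0444 in limma), to 38.0% of the WT signal, and its groups did not overlap. That call was lost in 6 of the 8 fits that left out 1 tumor (adjusted p up to 0.211). Cdh5 and Pecam1, defining genes of endothelium, stood well above the array medians in every tumor. Other endothelial members were dim, with means of 3.05 for Icam2, 3.31 for Sox7, 3.60 for Cldn5 and 3.98 for Vwf. Of the 40 members, 16 had a mean under 5. Luminal epithelial markers averaged 9.24 to 9.59 in cKO tumors and 9.45 to 9.94 in WT tumors.

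No member of the endothelial and angiogenic set passed the threshold between cKO and WT tumors. That threshold was an adjusted p of 0.05 in limma, with Benjamini-Hochberg adjustment over all 23521 rows with 1 symbol, of which 0.0085% were called in either direction, and the smallest adjusted p of a member was 0.266. At an unadjusted p under 0.05, 5 of the 40 members (12.5%) were lower in cKO and 0 were higher, beside 4.14% of all rows lower and 5.54% higher. The 5 were Erg, Flt1, Pgf, Ptprb and Vegfc. Counted in either direction, the members under that p were 2 without cKO 3, 3 without WT 3 or with the arrays shifted to 1 median, and 8 without cKO 1. They included Apln without cKO 3 and Nrp2 without cKO 1, both higher in cKO. Of all 23521 rows, 2277 were under that p in either direction in the main fit. Without cKO 3 these rows numbered 2165, without cKO 1 2154, and with the arrays shifted 2228. Their range over all single tumors left out is given at the end. The signal was lower in cKO for 30 of the 40 members (75.0%), beside 43.5% of all rows and 48.4% of rows with a mean of at least 5. The median difference of the members was −0.16 on the log2 scale, beside 0.02 over all rows. The size of this lean rested on single tumors: the median was −0.06 without cKO 3, with 24 members lower, and −0.24 without cKO 4. Leaving out 1 tumor moved the difference of 34 of the 40 members by over 1.5 times or turned its sign, the 6 others being the 5 above and Vwf.

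**Figure D1:**
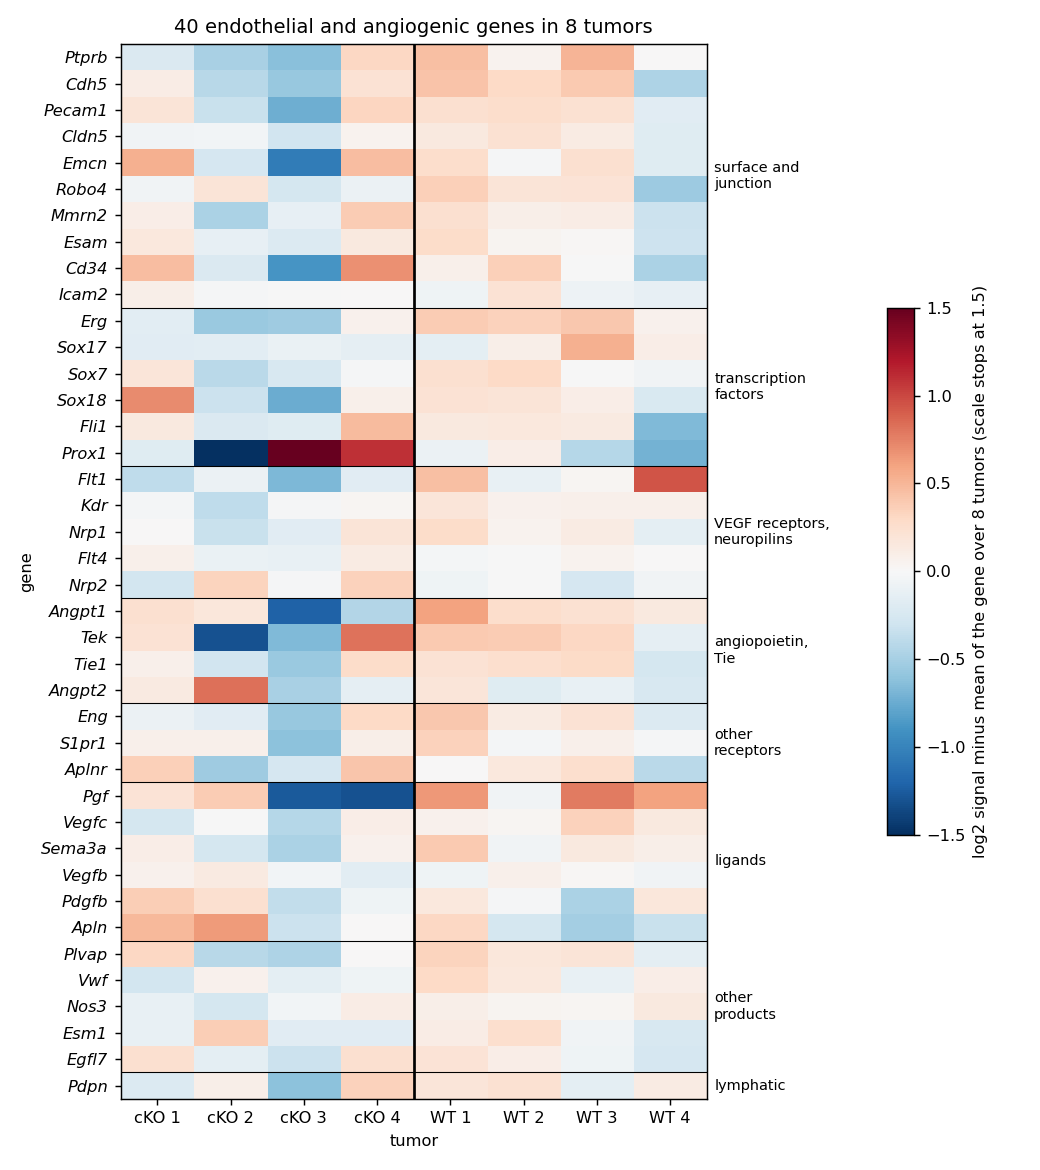
Log2 signal of each of the 40 members (rows, grouped by role) in each of the 8 tumors (columns, cKO left and WT right), shown as the difference from that gene's mean over the 8 tumors. Blue is lower and red is higher; cKO 3 is the lowest tumor in 19 rows, and Prox1 exceeds the color scale in cKO 2 and cKO 3.

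**Figure D2:**
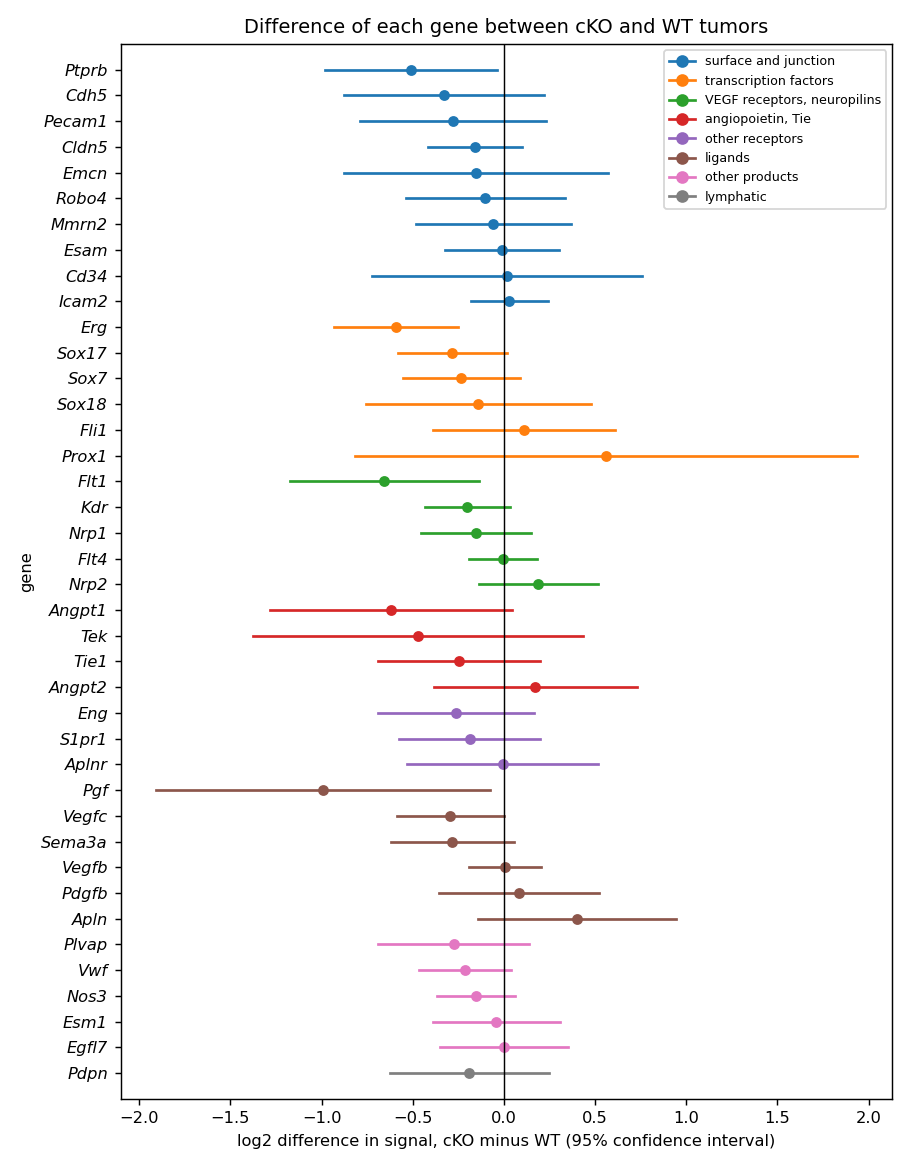
Difference in log2 signal, cKO minus WT, for each of the 40 members (points) with its unadjusted 95% confidence interval (lines), colored by role, n = 4 tumors per group. The intervals of 5 members lie below 0, that of Vegfc ending just short of it, and no interval lies above 0.

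The VEGF receptors are the entry point of angiogenic signalling, and Flt1 and Kdr had lower means in cKO tumors. Flt1, a high-affinity VEGF receptor that also acts as a decoy, had log2 signals of 5.34, 5.63, 5.04 and 5.55 in cKO tumors 1 to 4, against 6.17, 5.61, 5.75 and 6.66 in WT tumors 1 to 4. The cKO tumors were low except for an overlap of cKO 2 with WT 2, and WT 4 was the highest. The difference was −0.66 (SE 0.23, unadjusted p = 0.0189, adjusted p = 0.430 in limma), which is 63.5% of the WT signal with an unadjusted 95% confidence interval from 44.3% to 91.0%. Kdr, the main signalling VEGF receptor of blood endothelium, had signals of 6.27, 5.92, 6.28 and 6.33 in cKO tumors, against 6.48, 6.37, 6.38 and 6.38 in WT tumors. The groups did not overlap, though the gap was narrow, and cKO 2 stood apart from the other cKO tumors. The difference of Kdr was small, −0.20 (SE 0.10, adjusted p = 0.577 in limma), and −0.11 without cKO 2.

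The other receptors of this family had differences from −0.15 to 0.19. Flt4, the receptor of lymphatic endothelium, averaged 4.70 ± 0.12 in cKO and 4.70 ± 0.03 in WT tumors (SD, n = 4 each). Its difference of −0.01 had a 95% confidence interval from −0.19 to 0.18, and the sign turned under either rescaling of the arrays. The co-receptor Nrp1 differed by −0.15 and Nrp2, a neuropilin prominent in lymphatic and venous endothelium, by 0.19. Nrp2 was the member of the family with a higher mean in cKO, with signals from 4.93 to 5.54 in cKO and 4.94 to 5.19 in WT tumors, and the ranges overlapped. With single tumors left out, Nrp1 lay between −0.24 (without cKO 4) and −0.07 (without cKO 2), and Nrp2 between 0.11 (without cKO 4) and 0.31 (without cKO 1).

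**Figure D3:**
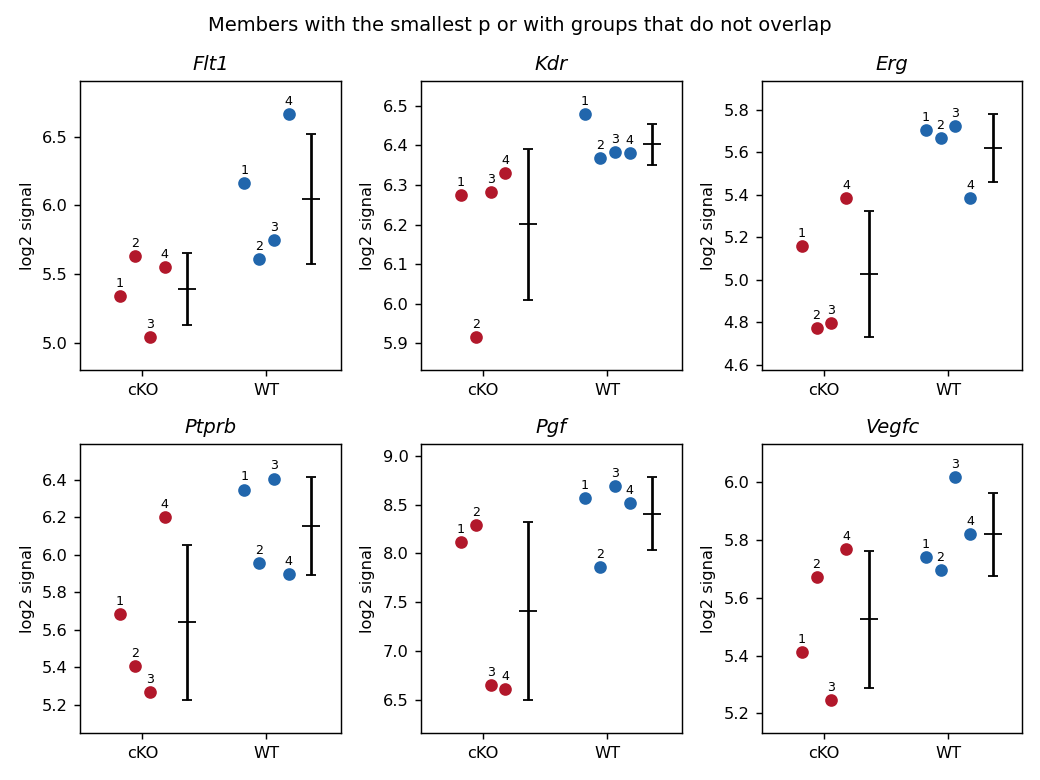
Log2 signal (vertical axes, which do not start at 0) of Flt1, Kdr, Erg, Ptprb, Pgf and Vegfc in 4 cKO (red, left) and 4 WT (blue, right) tumors, with replicate numbers beside the points and black marks for the mean ± SD. In Erg and Kdr every cKO point lies below every WT point, in Erg by less than the thickness of a point, and in Pgf the cKO points form a pair near 8.1 to 8.3 and a pair near 6.6.

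No endothelial transcription factor passed the threshold, and their differences had both signs. Erg, an ETS-family factor that maintains endothelial identity and junctions, had the smallest p among the members. Its signals were 5.16, 4.77, 4.79 and 5.38 in cKO tumors 1 to 4, against 5.70, 5.67, 5.73 and 5.38 in WT tumors 1 to 4. The groups did not overlap at the precision of the files, but cKO 4 and WT 4 were equal when rounded. The difference was −0.59 (SE 0.15, unadjusted p = 0.0035, adjusted p = 0.266 in limma), or 66.3% of the WT signal (95% confidence interval 52.3% to 84.1%). It ranged from −0.71 to −0.51 when single tumors were left out, so no tumor alone set its size. Over all rows 1.73% did not overlap with cKO lower, and among the members 2 did so, Erg and Kdr (5.0%). No member did so with cKO higher, beside 3.68% of all rows. Counted in either direction, the members not overlapping were 1 under a further quantile normalization and 0 with the arrays shifted to 1 median. They were 5 without cKO 4, WT 2 or WT 4, and those without WT 2 included Icam2, which was higher in cKO. Fewer tumors separate more easily, and the share of all rows in these fits was not counted.

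The related ETS factor Fli1 stood at 0.11 (95% confidence interval −0.39 to 0.61), and the sign turned without cKO 4 or without WT 4. Its signals were 7.02, 6.66, 6.69 and 7.35 in cKO tumors, against 7.02, 7.03, 7.01 and 6.21 in WT tumors. WT 4 stood apart from its group here. The SOX factors, which act in arterial and lymphatic specification, had lower means in cKO: Sox17 differed by −0.28, Sox7 by −0.23 and Sox18 by −0.14, none past the threshold. Sox17 was −0.15 without WT 3 and Sox7 −0.14 without cKO 2. Sox17 ran from 3.64 to 3.71 in cKO and from 3.66 to 4.34 in WT tumors, close to the array medians. Sox18 was highest and lowest in cKO tumors, at 5.71 in cKO 1 and 4.25 in cKO 3, and its difference was 0.08 without cKO 3.

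Promoter sequence was set beside these factors as a description, since ETS, SOX and GATA factors bind short motifs near endothelial genes. RefSeq promoter windows of mouse build GRCm38.p6, from 250 bases before to 50 bases after a transcript start, matched 22 of the 40 members in 28 windows. The ETS-type motif CAGGAAG was found on either strand in 7 of the 28 windows (25.0%), those of Apln, Cd34, Egfl7, Emcn, Erg and Robo4, against 13.3% of all 32851 windows. The other ETS-type motif, CCGGAAG, was in 0 of 28 against 8.86%, the SOX-type ACAANG in 10 (35.7%) against 41.2%, and the GATA-type AGATAA in 2 (7.14%) against 11.2%. No motif contains another, each was counted as present or absent in a window, and no test was made. The 250 bases upstream of 3 members are shown with matches in capitals, Erg because it had the smallest p and held 3 of the 4 motifs, and Flt1 and Kdr as the VEGF receptors described above, with no match. All 3 are on the minus strand and written 5′ to 3′, Erg, for the most downstream of its 3 listed starts, at chr16:95459349-95459598, Flt1 at chr5:147726012-147726261 and Kdr at chr5:75978456-75978705. In Erg the capitals mark, in this order, the SOX-type, the GATA-type and the CAGGAAG match, each read on the opposite strand. The windows of the other listed Erg starts, not shown, held no match.
Erg: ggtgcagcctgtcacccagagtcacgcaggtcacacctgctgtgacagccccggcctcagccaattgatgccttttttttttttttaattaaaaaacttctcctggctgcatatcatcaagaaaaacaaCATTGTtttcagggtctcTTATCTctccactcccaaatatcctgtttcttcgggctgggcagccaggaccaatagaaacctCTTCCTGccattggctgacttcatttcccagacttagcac
Flt1: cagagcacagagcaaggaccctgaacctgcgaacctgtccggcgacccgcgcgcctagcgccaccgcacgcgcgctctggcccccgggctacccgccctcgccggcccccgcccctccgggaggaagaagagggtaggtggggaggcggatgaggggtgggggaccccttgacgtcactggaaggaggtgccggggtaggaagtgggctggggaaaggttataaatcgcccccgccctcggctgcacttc
Kdr: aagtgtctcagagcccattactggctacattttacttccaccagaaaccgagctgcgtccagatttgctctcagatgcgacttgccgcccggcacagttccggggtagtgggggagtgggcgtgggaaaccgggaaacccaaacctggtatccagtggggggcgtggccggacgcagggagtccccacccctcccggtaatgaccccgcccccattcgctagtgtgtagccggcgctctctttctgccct

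Adhesion and junction genes of the endothelial surface were mostly lower on average in cKO tumors. Of the 10, 8 were lower and 2 higher in cKO, 0 past the threshold, with a median of −0.13 that was −0.03 without cKO 3. The SD was larger in cKO than in WT for 5 of the 10. Ptprb, a receptor phosphatase that restrains Tek signalling and VE-cadherin phosphorylation, had signals of 5.68, 5.41, 5.27 and 6.20 in cKO tumors 1 to 4, against 6.35, 5.95, 6.41 and 5.90 in WT tumors 1 to 4. Here 3 cKO tumors lay below every WT tumor and cKO 4 lay within the WT range. The difference was −0.51 (SE 0.21, unadjusted p = 0.0365, adjusted p = 0.487 in limma).

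Cdh5, which encodes VE-cadherin, had signals of 8.20, 7.67, 7.51 and 8.30 in cKO tumors, against 8.52, 8.39, 8.47 and 7.62 in WT tumors. Its cKO tumors formed a higher pair and a lower pair, and WT 4 lay with the lower pair. The difference was −0.33 (adjusted p = 0.694 in limma), −0.19 without cKO 3 and −0.54 without WT 4. Pecam1, the adhesion molecule CD31 used to count vessels, had signals of 7.19, 6.65, 6.26 and 7.31 in cKO tumors, against 7.23, 7.26, 7.22 and 6.82 in WT tumors. It showed the same order of tumors as Cdh5 within cKO, 4 above 1 above 2 above 3. Its difference of −0.28 (adjusted p = 0.724 in limma) was −0.08 without cKO 3 and −0.43 without cKO 4.

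The sialomucins Emcn and Cd34, both glycoproteins of the luminal surface, spread most within this group. Emcn ran from 5.56 in cKO 3 to 7.15 in cKO 1, against 6.43 to 6.87 in WT tumors, and Cd34 from 5.68 in cKO 3 to 7.25 in cKO 4, against 6.10 to 6.93. For both, cKO tumors lay above and below the whole WT range, and the means differed by −0.15 and 0.02. Differences of the remaining members lay between −0.16 and 0.03: the tight-junction claudin Cldn5 by −0.16, the guidance receptor Robo4 by −0.10, the matrix protein Mmrn2 by −0.06, the adhesion molecules Esam by −0.01 and Icam2 by 0.03. With single tumors left out, Cldn5 lay between −0.25 (without WT 4) and −0.09 (without cKO 3), and Robo4 between −0.30 (without WT 4) and −0.0032 (without WT 1). Cldn5 and Icam2, with Sox7, were the 3 members whose mean lay below the highest array median, so a difference in RNA could be understated there.

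The angiopoietin system had the widest spread among cKO tumors of the receptor systems, with a median SD of 0.62 in cKO and 0.23 in WT. Tek, the angiopoietin receptor, had signals of 5.19, 3.67, 4.32 and 5.79 in cKO tumors 1 to 4, against 5.37, 5.36, 5.28 and 4.84 in WT tumors 1 to 4. The cKO tumors spanned more than the WT range on both sides, with cKO 2 the lowest and cKO 4 the highest. Its difference of −0.47 (SE 0.40, adjusted p = 0.741 in limma) was −0.11 without cKO 2 and −0.82 without cKO 4. The partner receptor Tie1 differed by −0.25, and by −0.10 without cKO 3, and it was −0.38 without cKO 4 or WT 4.

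The 2 ligands of Tek had opposite signs. Angpt1, the agonist made by perivascular and stromal cells, had signals of 7.02, 6.95, 5.56 and 6.33 in cKO tumors, against 7.38, 7.04, 7.01 and 6.92 in WT tumors. The pair cKO 3 and cKO 4 was low, and the difference was −0.62 (SE 0.29, adjusted p = 0.545 in limma), or −0.32 without cKO 3. Another array row of Angpt1 averaged 3.24 ± 0.12 in cKO and 3.25 ± 0.15 in WT tumors (SD, n = 4 each), near the array medians, and differed by −0.01. Angpt2, which destabilizes vessels and is released by activated endothelium, stood at 0.17 with its highest signal, 5.56, in cKO 2, and at −0.07 without that tumor.

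Among the other secreted ligands, 3 had lower and 3 had higher means in cKO. Pgf, placenta growth factor, a VEGF-family ligand of Flt1, had signals of 8.11, 8.29, 6.65 and 6.61 in cKO tumors 1 to 4, against 8.56, 7.86, 8.69 and 8.51 in WT tumors 1 to 4. The tumors cKO 3 and cKO 4 were low, while cKO 1 and cKO 2 lay within the WT range. The difference of −0.99 was the most negative of the 40 (SE 0.41, unadjusted p = 0.0365, adjusted p = 0.487 in limma), and 50.2% of the WT signal had a 95% confidence interval from 26.6% to 94.8%.

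Vegfc, the ligand of Flt4 that drives lymphatic growth, had signals of 5.41, 5.67, 5.25 and 5.77 in cKO tumors, against 5.74, 5.70, 6.02 and 5.82 in WT tumors. Its groups overlapped through cKO 4, and the difference was −0.29 (SE 0.13, unadjusted p = 0.04997, adjusted p = 0.516 in limma). Sema3a, a guidance factor that acts through Nrp1, differed by −0.28, and by −0.17 without cKO 3. Vegfb, another Flt1 ligand, was even across all tumors, with 7.41 to 7.70 in cKO and 7.51 to 7.64 in WT tumors. Its difference of 0.00 had a 95% confidence interval from −0.19 to 0.20. Pdgfb, by which endothelium recruits pericytes, differed by 0.08.

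Neither apelin nor its receptor passed the threshold. Apln, a tip-cell peptide induced in sprouting vessels, differed by 0.40 (SE 0.24, adjusted p = 0.633 in limma), with signals of 5.87, 6.01, 5.05 and 5.38 in cKO tumors, against 5.68, 5.11, 4.86 and 5.04 in WT tumors. The highest 2 were cKO tumors 1 and 2, and both WT 1 and WT 2 lay among the cKO tumors. The difference was 0.26 without cKO 2. The receptor Aplnr differed by −0.01, and its sign turned under either rescaling. The endothelial TGF-beta co-receptor Eng differed by −0.27 and the sphingosine phosphate receptor S1pr1 by −0.19, values that were −0.12 and −0.01 without cKO 3.

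Other endothelial products were slightly lower or level. Vwf, the clotting glycoprotein stored by endothelium, had signals of 3.70, 4.05, 3.83 and 3.91 in cKO tumors 1 to 4, against 4.27, 4.14, 3.87 and 4.07 in WT tumors 1 to 4. Both groups lay close to the array medians, with cKO 1 below the highest of them, and overlapped. The difference was −0.21 (adjusted p = 0.584 in limma). Plvap, the diaphragm protein of fenestrated capillaries, differed by −0.28, and by −0.17 without cKO 3 or −0.43 without cKO 1. The nitric oxide synthase Nos3 differed by −0.15 (−0.09 without cKO 2), the tip-cell proteoglycan Esm1 by −0.04 and the secreted factor Egfl7 by 0.00.

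Differences of the lymphatic genes had both signs. Prox1, the master regulator of lymphatic identity, had signals of 4.83, 3.48, 6.76 and 6.11 in cKO tumors 1 to 4, against 4.93, 5.11, 4.59 and 4.31 in WT tumors 1 to 4. The cKO tumors held both the highest 2 and the lowest signal, with an SD of 1.45 in cKO and 0.36 in WT. The difference of 0.56 (SE 0.61, adjusted p = 0.813 in limma) was 0.07 without cKO 3, 0.29 without cKO 4 and 1.16 without cKO 2. Pdpn, a glycoprotein of lymphatic endothelium that fibroblasts and epithelium also make, was lowest in cKO 3 at 5.26 and highest in cKO 4 at 6.22, with a difference of −0.19 that was −0.02 without cKO 3 and −0.34 without cKO 4. Lyve1, a hyaluronan receptor of lymphatics and of some macrophages that is not a member, had 5.13, 4.67, 4.19 and 6.65 in cKO tumors, against 4.91, 4.79, 5.94 and 6.01 in WT tumors. Thus in cKO 3 Prox1 was the highest of the 8 tumors while Lyve1 and Pdpn were the lowest. Of 6 measured lymphatic markers outside the set, 4 were higher and 2 lower in cKO, with a median of 0.05, and 1 had a mean of at least 5.

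**Figure D4:**
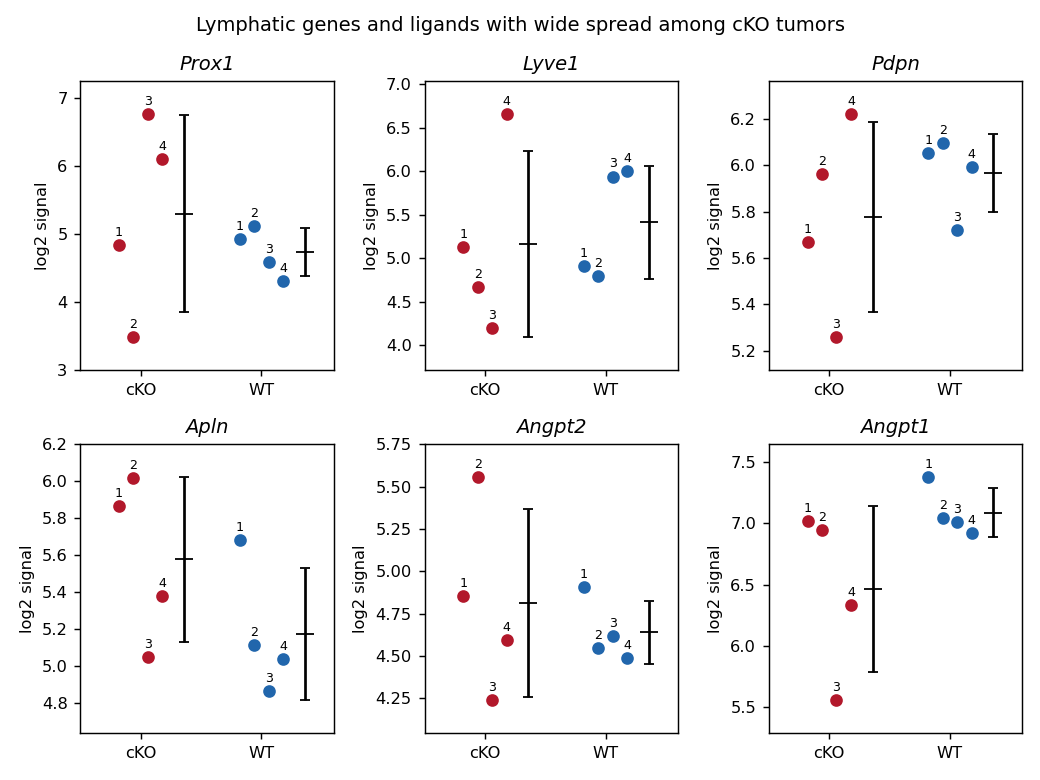
Log2 signal (vertical axes, which do not start at 0) of Prox1, Lyve1, Pdpn, Apln, Angpt2 and Angpt1 in 4 cKO (red, left) and 4 WT (blue, right) tumors, with replicate numbers and the mean ± SD in black. The 6 genes were chosen after their values were seen; the cKO points spread over a wider range than the WT points in each panel.

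Values of the set spread more among cKO than among WT tumors. The SD over tumors was larger in cKO than in WT for 31 of the 40 members (77.5%), beside 58.8% of all rows, and the median SD of the members was 0.33 in cKO and 0.20 in WT. The same count was 11 of 11 fibroblast markers and 9 of 12 pericyte and smooth muscle markers, and no test of this difference was made. For 19 members (47.5%) cKO 3 was the lowest of the 8 tumors, beside 13.6% of all rows and 16.5% of rows with a mean of at least 5, and it was the lowest for 7 of 11 fibroblast and 7 of 12 pericyte and smooth muscle markers. The lowest tumor was cKO 2 for 9 members, WT 4 for 5, cKO 1 for 3, and cKO 4 and WT 3 for 2 each. Averaged over the 40 members after subtracting each gene's mean, the tumors stood at 0.08, −0.16, −0.37 and 0.12 in cKO 1 to 4, against 0.22, 0.11, 0.10 and −0.11 in WT 1 to 4. Thus cKO 1 and cKO 4 lay among the WT tumors, and WT 4 lay near cKO 2.

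Fibroblast markers had the same order of tumors within cKO as the members, and so did the macrophage and lymphatic markers, while luminal and pericyte markers did not. Averaged in the same way, the 11 fibroblast markers measured stood at 0.11, −0.76, −1.66 and 0.74 in cKO 1 to 4, against 0.45, 0.57, 0.51 and 0.03 in WT 1 to 4. That order was 4 above 1 above 2 above 3, and WT 4 was the lowest WT tumor in both. All 11 fibroblast markers were lower in cKO, beside 43.5% of all rows, with 0 past the threshold. Their median was −0.92, and −0.27 without cKO 3. Their mean level ran from 5.29 to 7.70 in cKO and from 6.98 to 7.53 in WT tumors.

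Of 12 pericyte and smooth muscle markers 10 were lower, beside 43.5% of all rows. They had a median of −0.35 and a mean level of 4.99 to 5.53 in cKO against 5.50 to 5.76 in WT tumors. The median was −0.14 without cKO 3. In the same average WT 4, at 0.24, was among the highest for these markers, unlike its place for the members. Macrophage markers went the other way: 9 of 12 were higher in cKO and 3 lower (Cd14, Mrc1 and Cd163), beside 43.5% of all rows lower. They had a median of 0.39 and a mean level of 6.47 to 6.81 in cKO against 6.19 to 6.56 in WT tumors. At an unadjusted p under 0.05 in limma 7 were higher, beside 5.54% of all rows. The groups of 4 did not overlap with cKO higher, beside 3.68% of all rows. Of 10 luminal epithelial markers 8 were lower, beside 43.5% of all rows, with a median of −0.18, close to the −0.16 of the members. Their highest tumor was WT 4, at 0.40, and their lowest was cKO 4, at −0.30. The median was 0.12 for adipocyte markers and 0.12 for the 4 measured blood and platelet markers. No marker of these lists passed the threshold. The part of these other cell types in the differences of the endothelial set was not tested.

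**Figure D5:**
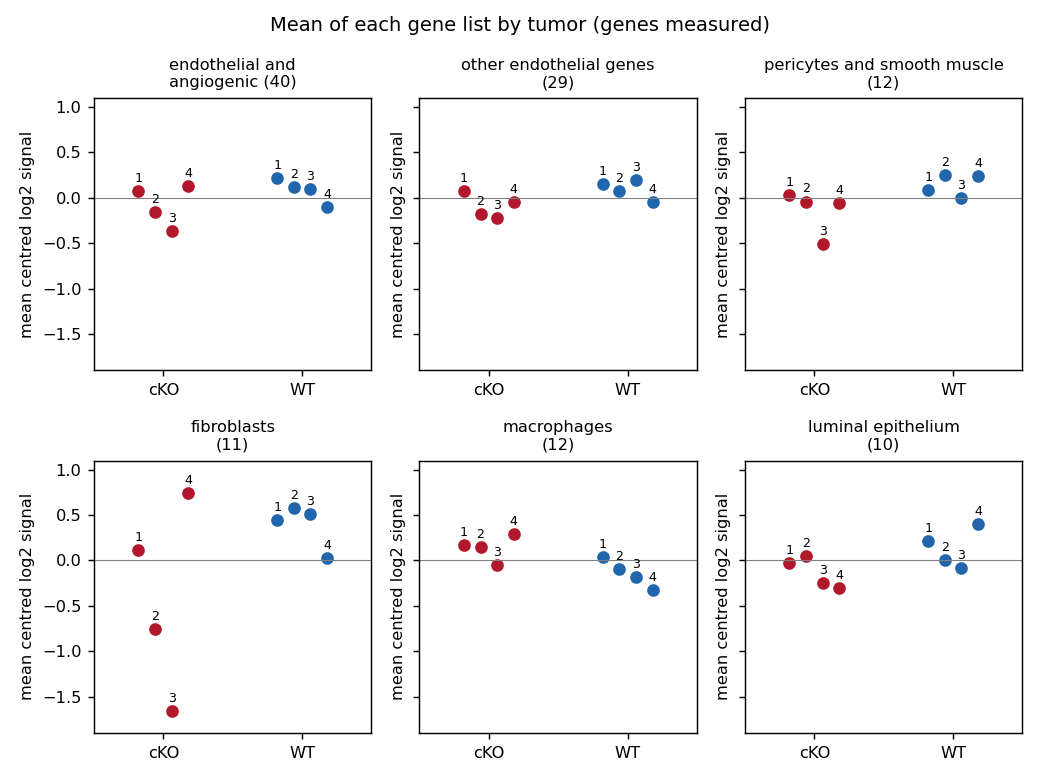
Mean over the genes of each list of the log2 signal minus each gene's mean over the 8 tumors (vertical axes), in 4 cKO (red, left) and 4 WT (blue, right) tumors with replicate numbers, for the endothelial and angiogenic set and 5 other lists, the number of genes measured in parentheses. The tumor cKO 3 is the lowest in the endothelial, pericyte and fibroblast panels, and the fibroblast panel has the widest range, from −1.66 to 0.74.

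Genes of the same pathways outside the set leaned the same way in their counts, with 0 called in any of the 3 lists. Some were brighter than every member, whose highest mean was 8.09, such as Hey1 at 9.70 and Palmd at 9.42. Which cell types gave the signal of these lists was not tested. For comparison with the counts of these lists, 43.5% of all rows were lower in cKO, and 1.73% were lower with no overlap. At an unadjusted p under 0.05 in limma, 4.14% of all rows were lower and 5.54% higher. Among 29 measured further endothelial genes, 22 were lower and 7 higher in cKO, with a median of −0.13, and 4 were lower at an unadjusted p under 0.05. Gata2, a zinc-finger factor of endothelial and blood cells, had signals of 4.15, 4.10, 4.31 and 4.00 in cKO tumors, against 4.90, 4.64, 5.24 and 4.53 in WT tumors. Its groups did not overlap, and the difference was −0.69 (SE 0.15, adjusted p = 0.203 in limma). Within cKO, Gata2 was highest in cKO 3 and lowest in cKO 4, where the members averaged lowest and highest. Cyyr1 differed by −0.59 with no overlap, Cd300lg, a receptor of capillary and venular endothelium, by −0.72, and the flow-responsive factor Klf2 by −0.34. In this list the count of 22 lower genes was the same without cKO 3, and the median was −0.07.

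Among 24 VEGF, angiopoietin and TGF-beta pathway genes of vessels, 17 were lower and 7 higher, with a median of −0.11. The 4 with the smallest p were all lower: the platelet-derived growth factor receptors Pdgfra (−0.71) and Pdgfrb (−0.42), which mark fibroblasts and pericytes, and the receptors Tgfbr2 (−0.36) and Bmpr2 (−0.25), which many cell types make. Vegfa, the principal ligand of Kdr, ran from 7.44 to 9.14 in cKO and from 7.60 to 9.19 in WT tumors, and differed by −0.29 (SE 0.44, adjusted p = 0.868 in limma). Among 19 arterial, venous and tip-cell genes 15 were lower and 4 higher, with a median of −0.22 and 6 lower and 1 higher at an unadjusted p under 0.05. By smallest p these began with the transcriptional repressor Hey2 (−1.36) and the endothelial receptor Notch4 (−0.38, groups not overlapping). Next were the chemokine receptor Cxcr4 (0.89), which leukocytes also express, and the venous receptor Ephb4 (−0.30). Hey2 and Notch4 were both lowest in cKO 4 and highest in WT 4 of the 8 tumors, as was the luminal marker average. The members averaged 0.12 in cKO 4, their highest cKO tumor, and −0.11 in WT 4, their lowest WT tumor. The cell source of Hey2 and Notch4 was not tested. The Notch ligand of tip cells Dll4, named after its values were seen, differed by −0.28.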

How the data were processed

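Total RNA from 8 whole mammary tumors was measured on Affymetrix arrays, 1 array per tumor. The deposited values are log2 signals, and the submitters' processing notes name RMA and limma, without versions or parameters. RMA normalizes between arrays, so a shift common to most genes would not be seen. The values were checked against that scale and ran from 0.853 to 12.9. Without detection calls, a dim row cannot be told from background, and precision is limited by the 8 arrays.

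The table has 41345 rows, with 1 gene symbol for 23521, several for 1814 and none here for 16010; 23328 symbols were looked up by gene identifier in RefSeq's GRCm38.p6 table. For 39 members 1 row was present, and Angpt1 was taken from the brighter of 2. The rows with 1 symbol were fitted with limma 3.58.1 under R 4.3.3 by lmFit and eBayes. Tests were two-sided, for cKO minus WT without covariates, adjusted by Benjamini-Hochberg over these rows at a threshold of 0.05. The procedure was tried on simulated data with independent rows and equal spread in both groups, so it does not cover the unequal spread seen here. An exact permutation of 4 against 4 tumors allows no p below 0.0286 and gave 0.0286 for Mmp14, Erg and Kdr. Intervals are at 95% and unadjusted. The replicates are labelled biological. The limma p-values set each difference against the spread between these tumors, with variances moderated over all rows.

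The members, lists and tests were chosen with earlier results of these data known, and a list is described by counts and medians with no test. All 40 members are described; values in all 8 tumors are given for members with an unadjusted p under 0.05 or groups that do not overlap and for Pecam1, Cdh5, Kdr, Flt1, Tek and Vwf. The per-tumor values of Fli1, Angpt1, Apln, Prox1, Lyve1 and Gata2, and the naming of Vegfa, were added after they were seen. From each further pathway list up to 4 genes with the smallest unadjusted p under 0.05 are named. Listed genes with no row under 1 symbol were Rasip1, Ccl21a, Fbn1, Cfd, Hba-a1, Hbb-bs, Alas2 and Gp1bb. The alternatives tried were quantile normalization once more, arrays shifted to 1 median, a filter at a mean of 5, limma-trend with robust eBayes, the replicate number as a block, the mean of a gene's rows, and each tumor left out.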

Additional observations from a re-analysis of the deposited data

Results flagged for a closer look

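Within the groups of 4 tumors, 10 values stood far from the other 3 by Dixon's criterion, over 82 groups of the members and Mmp14. Chance flags about 1 in 20 groups, or 4.1 of 82, and genes that share a tumor are not independent. Of the 10 values, 5 were low values of WT 4: Pecam1 at 6.82, Cdh5 at 7.62, Fli1 at 6.21, Tek at 4.84 and Tie1 at 4.47. The fibroblast marker average was also lower in WT 4, at 0.03, than in the other WT tumors, at 0.45 to 0.57, and its part in these values was not tested. Without WT 4, 35 of the 40 members were lower in cKO, with a median difference of −0.23.

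The other values were scattered over tumors. Kdr was low in cKO 2, at 5.92, and high in WT 1, at 6.48. S1pr1 was low in cKO 3, at 4.54, Esm1 was high in cKO 2, at 4.30, and Icam2 was high in cKO 1, at 3.13.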

How the results depend on the processing

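No member passed the threshold under any of the 14 alternatives, and 26 of the 40 kept the sign of their difference under all of them; 41 of 544 recomputed member differences turned. Under another quantile normalization Esam (0.016), Flt4 (0.027) and Aplnr (0.025) turned positive, as they did with arrays shifted to 1 median (0.0027, 0.0061 and 0.0062). With single tumors left out, the members with a turned sign had these ranges: Esam (−0.11 to 0.079), Flt4 (−0.051 to 0.030), Aplnr (−0.15 to 0.17), Cd34 (−0.21 to 0.32), Vegfb (−0.040 to 0.056), Pdgfb (−0.063 to 0.22), Egfl7 (−0.082 to 0.11). The others were Mmrn2 (−0.19 to 0.091), Angpt2 (−0.075 to 0.36), Emcn (−0.36 to 0.17), Sox18 (−0.40 to 0.085), Esm1 (−0.17 to 0.037), Fli1 (−0.095 to 0.20), Icam2 (−0.0083 to 0.11). The cause was not tested.

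The count of members lower in cKO was 27 under either rescaling, 17 of 24 with rows under a mean of 5 left out (fewer genes), and 24 to 35 with single tumors left out. Non-overlapping members, counted in either direction, numbered 1 under quantile normalization, 0 with arrays at 1 median, and 2 to 5 with single tumors left out. The 5 were reached without cKO 4, WT 2 or WT 4. Fewer tumors separate more easily, and no share of all rows was counted for these fits. The median of the members lay between −0.24 and −0.06 with single tumors left out. Over all rows the calls numbered 0 to 3 with single tumors left out, with 1597 to 2773 rows at an unadjusted p under 0.05. Mmp14 lay between −1.48 and −1.30 there, with adjusted p from 0.0429 to 0.211.

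With the replicate number as a block, Mmp14 was −1.40 with an adjusted p of 0.353 and 0 rows were called in limma, 1898 of them at an unadjusted p under 0.05. The labels give the numbers no meaning across groups, and same-numbered tumors' deviations correlated at −0.02, −0.20, 0.29 and −0.24, so the numbers were not taken to pair the tumors. For dim members, 16 with a mean under 5, the array's background limits what a difference can show.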
